A study of Mus musculus with 8 samples.

Results

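Among the genes that differed between Klf6-silenced and control oligodendrocyte progenitors (OLP), 53 were more highly expressed after silencing and are described here. They were chosen as the rows of the OLP comparison table whose siKlf6 value lay above the control value, leaving out Sox9, Sox21, Dact1 and 3 rows that name a microRNA gene. The table held 275 rows, of which 59 (21.5%) were higher after silencing before these exclusions and 216 were lower. Because the OLP values chose the genes, all their OLP values are descriptions and none of them is a test. For 16 of the 53 the same gene was also listed in a second table, for immature oligodendrocytes (iOL), and 37 were listed in OLP only.

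The cells were primary C57BL/6 mouse OLP, isolated from early postnatal cortex by immunopanning (removal of microglia with a lectin, then capture with an antibody to Pdgfra) and grown in medium with PDGF-AA at 10 ng/ml and bFGF at 20 ng/ml. They had been nucleofected, that is electroporated for delivery to the nucleus, with an siRNA that targets Klf6 (siKlf6) or with a control siRNA without a target (NT). There were 8 cultures in 4 groups of 2, namely OLP NT, OLP siKlf6, iOL NT and iOL siKlf6. The iOL groups received the same siRNA and were then kept for 18 h with the thyroid hormone T3 (40 ng/ml), which drives differentiation, whereas the OLP groups received no T3. RNA was measured by RNA sequencing and is given as FPKM, sequenced fragments divided by transcript length and by library size, so that levels can be compared between genes of different length. Each table held only genes that the authors had called different at that stage and 1 pooled FPKM value for each condition. Values of single cultures were therefore not analysed here, no error between cultures can be given, and the sequencing depth is unknown. The tables cannot show whether a gene without a row was unchanged, and such a gene is described as not listed.

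Klf6 is a zinc finger transcription factor of the Krüppel-like family, whose members bind GC-rich and CACCC sequences and can activate or repress a promoter. OLP divide in response to growth factors, differentiate into iOL when thyroid hormone and other signals act on them, and later form the myelin of the central nervous system. Although they are glia, OLP receive synapses from neurons and carry ion channels and neurotransmitter receptors, and they contact a matrix of laminins, fibulins and collagens that influences their migration and maturation. In OLP the Klf6 level was 38.6 FPKM in NT and 20.0 FPKM in siKlf6, 48.2% lower. Klf6 was not listed in iOL, so its level at that stage could not be checked.

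The increases in OLP ranged from 1.51-fold to 4.07-fold, with a median of 1.87-fold (a log2 difference, siKlf6 over NT, of 0.90). Expression in NT OLP spanned 0.105 to 104 FPKM with a median of 5.06 FPKM. It was below 1 FPKM for 11 of the 53 genes and at least 10 FPKM for 20. The log2 difference reached 1, a doubling, for 22 genes. After 1 FPKM was added to every value, which damps differences between low values, the median log2 difference was 0.72 and only Nrgn, Car3, Zcchc12 and A730017C20Rik remained at 1 or more. All 4 were also listed in iOL. By contrast, the 216 genes that were lower in OLP had a median log2 difference of -1.16. At the edge of the set, the members with the smallest log2 differences were Prps2 at 0.59, Lama4 at 0.62 and Mbnl1 at 0.64, and the nearest genes on the other side were Ireb2 at -0.58 and Slc39a1 at -0.60. No listed gene lay between these values.

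**Figure D1:**
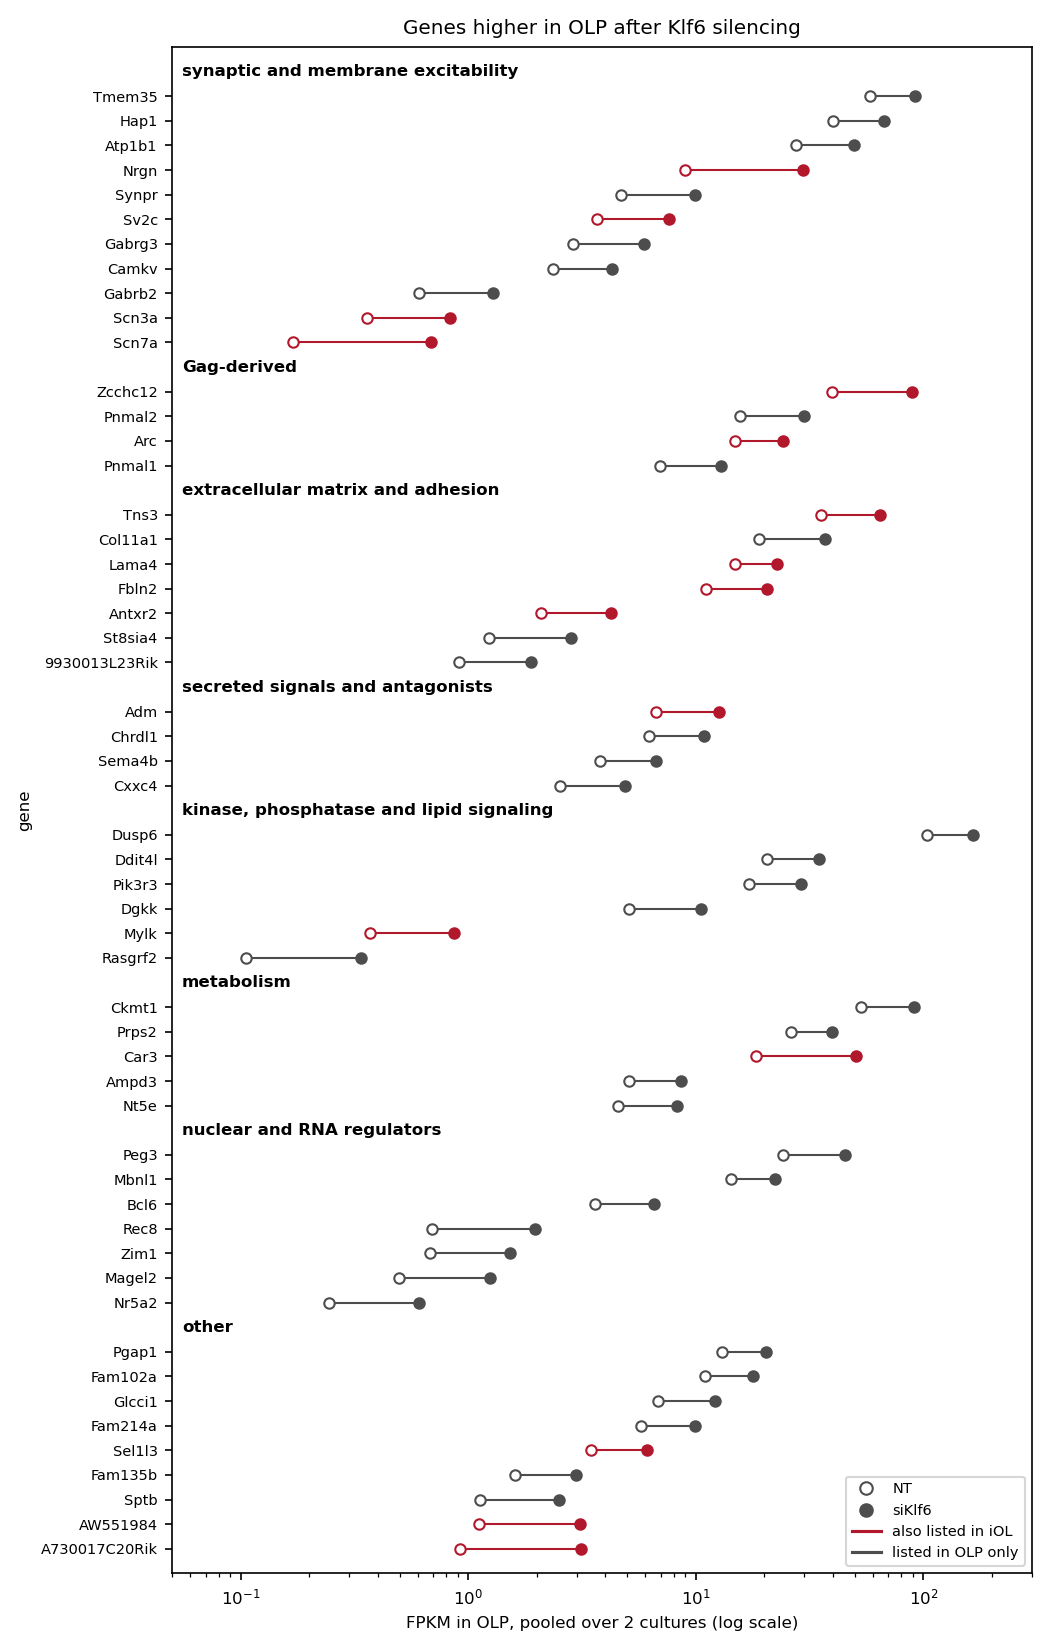
Level of each of the 53 genes in OLP, in FPKM on a log scale, with NT as an open circle and siKlf6 as a filled circle, grouped by role. Each circle is 1 pooled value of 2 cultures, so there are no error bars. Genes also listed in iOL are in red, and they run from Scn7a at 0.169 FPKM in NT to Zcchc12 at 39.8 FPKM.

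Large log2 differences were found mainly among weakly expressed genes. Scn7a, which went from 0.169 to 0.688 FPKM, had the largest at 2.03, and Rasgrf2, the most weakly expressed member in NT, had 1.69. Dusp6, the most abundant member, had 0.67. Nrgn and Car3 stood apart from this relation, with log2 differences of 1.73 and 1.46 from NT levels of 8.96 and 18.3 FPKM. A weakly expressed gene needs a larger fold difference to be called in a count-based comparison, and the part of this in the pattern was not tested.

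**Figure D2:**
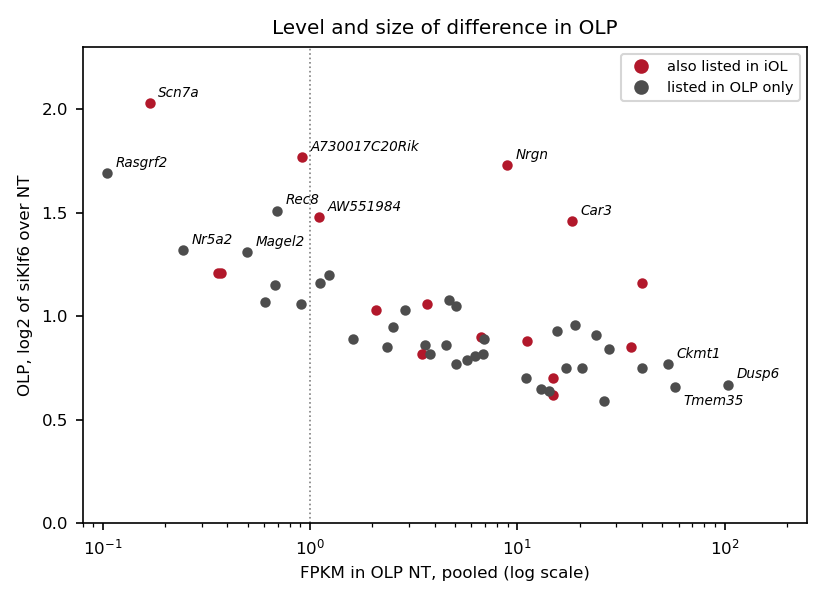
The log2 difference of siKlf6 over NT in OLP (vertical axis) against the level in OLP NT (horizontal axis, FPKM on a log scale) for the 53 genes, each point 1 gene. The dotted line marks 1 FPKM. Points to its left include Scn7a at 2.03 and Rasgrf2 at 1.69, and the 3 highest points to its right are Nrgn at 1.73, AW551984 at 1.48 (just right of the line, at 1.11 FPKM) and Car3 at 1.46.

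The iOL values come from other samples and were not used in choosing the genes. Both stages received the same siRNA, and whether they shared a cell preparation is not stated in the sources used here. All 16 genes listed at both stages were higher in siKlf6 iOL, whereas 54.5% of the 112 rows of the iOL table were. The 34 genes lower in OLP and listed in iOL were all lower there. The share of genes listed in iOL was 30.2% for the 53 genes (16 of 53), 15.7% for the genes lower in OLP (34 of 216) and 18.2% for all rows of the OLP table. Counted from the other side, the 16 genes were 26.2% of the 61 rows higher in iOL. Among the members with at least 1 FPKM in both OLP conditions, 28.6% (12 of 42) were listed in iOL, against 36.4% (4 of 11) of the members below 1 FPKM. A row had to be called by the authors in iOL to appear, so these shares do not say how the remaining 37 genes behaved in iOL.

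The genes listed at both stages and those listed in OLP only had nearly the same NT levels in OLP, with medians of 5.18 and 5.06 FPKM. Their median log2 differences in OLP were 1.11 and 0.86. The gap was narrower with 1 FPKM added (0.82 and 0.72) and was 0.89 against 0.83 when genes below 1 FPKM in any condition were left out. In iOL the median log2 difference of the 16 genes was 1.01. It was larger in OLP for 8 genes and larger in iOL for 8, and for 7 the 2 stages were within 0.25 of each other. Neither stage had the larger difference throughout.

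**Figure D3:**
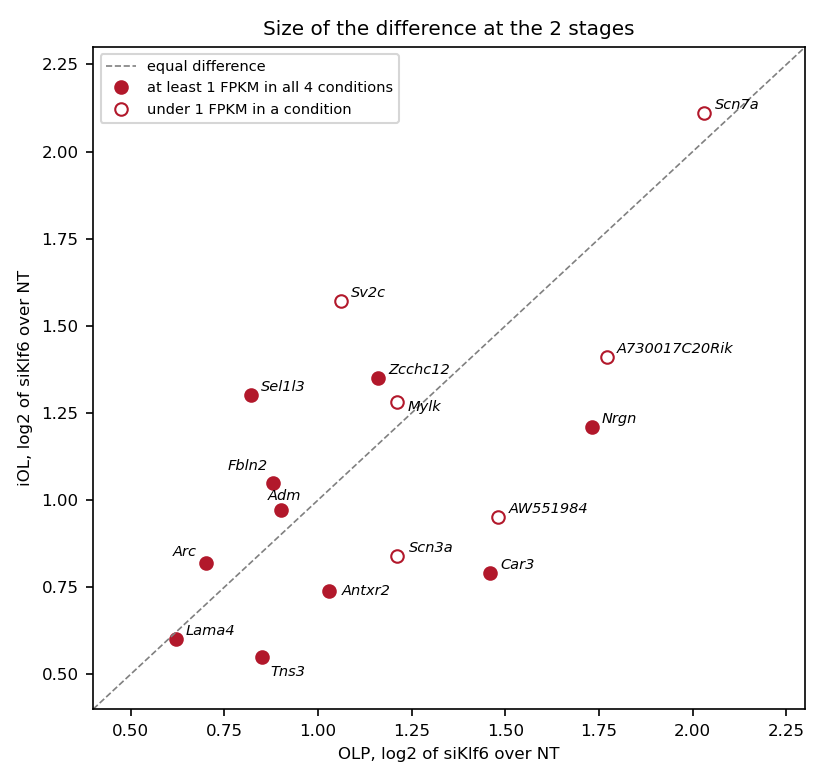
The log2 difference of siKlf6 over NT in OLP (horizontal axis) and iOL (vertical axis) for the 16 genes listed at both stages, each point 1 gene from pooled values. Open points had less than 1 FPKM in at least 1 condition, and the dashed line marks equal differences. Car3, Nrgn and AW551984 lie farthest below the line, with iOL minus OLP differences of -0.68, -0.52 and -0.53, and Sv2c and Sel1l3 farthest above it, with 0.51 and 0.48.

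To show the sequence next to which these genes are transcribed, the promoters of the 6 genes that were listed at both stages, had at least 1 FPKM in all 4 conditions and had a single promoter in the RefSeq-derived table are printed below. Each is the 250 bases before the transcription start in the mouse build GRCm38.p6, on the strand of the gene. Capitals mark CACCC and GGGCGG on either strand (GGGTG and CCGCCC on the other), the short sequences that Krüppel-like and Sp factors are known to bind, and where matches overlap the capitals run together. The windows are chr9:37552746-37552995 (minus strand) for Nrgn, chrX:36195654-36195903 (plus strand) for Zcchc12, chr11:8664536-8664785 (minus strand) for Tns3, chr6:91212514-91212763 (plus strand) for Fbln2, chr5:98031018-98031267 (minus strand) for Antxr2 and chr7:110627407-110627656 (plus strand) for Adm.
Nrgn: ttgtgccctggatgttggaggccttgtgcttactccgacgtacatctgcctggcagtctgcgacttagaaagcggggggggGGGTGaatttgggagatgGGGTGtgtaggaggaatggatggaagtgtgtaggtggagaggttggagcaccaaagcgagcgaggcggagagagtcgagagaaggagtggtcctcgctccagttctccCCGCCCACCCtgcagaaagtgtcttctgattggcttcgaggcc
Zcchc12: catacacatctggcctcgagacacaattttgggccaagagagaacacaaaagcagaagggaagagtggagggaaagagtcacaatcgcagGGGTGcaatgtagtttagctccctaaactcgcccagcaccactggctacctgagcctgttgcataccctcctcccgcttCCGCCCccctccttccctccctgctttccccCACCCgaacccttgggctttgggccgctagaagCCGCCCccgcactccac
Tns3: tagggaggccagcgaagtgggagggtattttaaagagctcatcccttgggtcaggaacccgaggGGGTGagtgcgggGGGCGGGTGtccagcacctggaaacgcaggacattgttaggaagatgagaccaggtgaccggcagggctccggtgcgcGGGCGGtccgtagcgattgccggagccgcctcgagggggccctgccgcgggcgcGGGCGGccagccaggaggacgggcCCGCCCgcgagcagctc
Fbln2: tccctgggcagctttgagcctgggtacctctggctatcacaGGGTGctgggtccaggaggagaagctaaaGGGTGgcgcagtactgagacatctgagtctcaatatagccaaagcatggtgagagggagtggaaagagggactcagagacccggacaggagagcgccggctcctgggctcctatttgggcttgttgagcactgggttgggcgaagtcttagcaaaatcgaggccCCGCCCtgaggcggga
Antxr2: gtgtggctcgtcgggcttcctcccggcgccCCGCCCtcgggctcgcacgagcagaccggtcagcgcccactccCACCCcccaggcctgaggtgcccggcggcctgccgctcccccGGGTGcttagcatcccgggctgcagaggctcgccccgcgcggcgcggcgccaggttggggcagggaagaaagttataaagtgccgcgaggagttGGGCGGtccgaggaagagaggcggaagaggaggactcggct
Adm: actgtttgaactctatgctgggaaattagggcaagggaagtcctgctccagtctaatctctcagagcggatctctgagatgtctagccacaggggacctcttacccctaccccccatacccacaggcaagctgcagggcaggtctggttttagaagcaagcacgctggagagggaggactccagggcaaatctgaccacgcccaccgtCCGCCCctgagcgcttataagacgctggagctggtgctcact

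All 6 windows held GGGCGG, and all except that of Adm held CACCC. They do not stand for every gene listed at both stages, since the AW551984 window held neither motif and that of Mylk no GGGCGG. Among the 6, the Tns3 window held the most copies of GGGCGG, with 4, and the Nrgn window held 3 of CACCC. Over the 44 of the 53 genes with a promoter in the table, CACCC was found in 68.2%, and in 51.3% of all 27025 promoters (53.2% of those of protein-coding genes). GGGCGG was found in 63.6% of the 44, against 32.9% of all promoters and 42.7% of protein-coding ones. The genes lower in OLP, of which 145 of 216 had a promoter, held CACCC in 61.4% and GGGCGG in 71.7%, the latter above the share of the 44, so that both motifs were more frequent than in all promoters in either set. The 44 windows had a median of 60.4% G and C, against 63.6% for the lower genes, 52.0% for all promoters and 55.2% for protein-coding genes, and both motifs are made mostly of these bases. TGACTCA, the AP-1 sequence, was found in 4.55% of the 44 and 4.43% of all. TTCCNGGAA, the STAT sequence, was found in 1 of the 44 (2.27%, against 0.914%). TGACGTCA, the CREB sequence, was also found in 1 (2.27%, against 1.62%). All motifs were searched on both strands. A match in these windows is a description and not evidence of binding, and the shares of the lower genes are given for comparison only, since fewer than 80% of these genes had a promoter. For the same reason no share is given for the 16 genes listed at both stages, of which 10 had a promoter.

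Genes of synapses and membrane excitability were the largest role group, with 11 of the 53 genes, 4 of them listed at both stages. Nrgn, which encodes the postsynaptic calmodulin-binding protein neurogranin, was at 8.96 FPKM in NT and 29.7 FPKM in siKlf6 OLP, a 3.32-fold difference, and at 3.87 and 8.97 FPKM in iOL, a 2.32-fold difference. Sv2c, a synaptic vesicle glycoprotein, was at 3.66 and 7.64 FPKM in OLP and at 0.824 and 2.45 FPKM in iOL. The difference was larger in iOL for Sv2c (log2 1.57 against 1.06) and larger in OLP for Nrgn (1.73 against 1.21). With 1 FPKM added the stages gave nearly the same value for Sv2c, 0.92 and 0.89. Both sodium channel genes were weakly expressed. Scn3a was at 0.360 and 0.831 FPKM in OLP and at 0.536 and 0.962 FPKM in iOL. Scn7a, whose channel responds to sodium concentration rather than to voltage, was at 0.169 and 0.688 FPKM in OLP and at 0.0545 and 0.236 FPKM in iOL, below 1 FPKM in all 4 conditions.

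The other 7 genes of this group were listed in OLP only. Synpr (synaptoporin, a synaptic vesicle protein) went from 4.67 to 9.87 FPKM. The GABA-A receptor subunits Gabrg3 and Gabrb2 went from 2.89 to 5.89 FPKM and from 0.609 to 1.28 FPKM. Camkv, a calmodulin kinase-like pseudokinase, went from 2.36 to 4.27 FPKM. The remaining 3 were among the most abundant of the 53 genes. Tmem35, which encodes a chaperone of nicotinic acetylcholine receptors, went from 58.0 to 91.7 FPKM. Hap1, a huntingtin-binding trafficking protein, went from 40.0 to 67.4 FPKM. Atp1b1, a subunit of the sodium-potassium pump, went from 27.6 to 49.5 FPKM. The differences of these 3 were 1.58-fold to 1.79-fold.

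In a list of 29 neuronal and synaptic genes, 7 were higher in OLP (Nrgn, Synpr, Sv2c, Gabrg3, Hap1, Atp1b1 and Tmem35), 2 were lower and 20 were not listed. The genes that were lower were Vgf, a secreted neuropeptide precursor, which went from 19.7 to 4.81 FPKM, and Nefl, the light neurofilament, which went from 4.59 to 1.16 FPKM. In iOL 4 were higher (Nrgn, Sv2c, Cntn6 and Rab3b) and Nefl was lower. This list and the other role lists below were drawn up with earlier results of these data known. Their counts therefore describe the lists alone and are no test of a role. Of all 275 rows in OLP, 21.5% were higher before the exclusions, and the share of all genes that were called is not known. Of 12 neuron markers none was higher at either stage, and Tubb3 (22.0 to 6.62 FPKM) and Nefl were lower in OLP. The other 10 neuron markers, Rbfox3 and Snap25 among them, were not listed, so their level is not known here. In RNA of a whole culture, fewer cells of a type and less RNA per cell cannot be told apart.

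Gene products derived from a retrotransposon Gag protein, the shell-forming protein of retroviruses, made up 4 of the 53 genes. Arc, whose product takes part in synaptic plasticity and can form capsids, was at 14.9 FPKM in NT and 24.2 FPKM in siKlf6 OLP, and at 4.03 and 7.11 FPKM in iOL. Zcchc12, a Gag-like protein described as a coactivator of BMP signaling, was at 39.8 and 89.0 FPKM in OLP and at 14.2 and 36.1 FPKM in iOL. It was the most abundant of the 16 genes in NT OLP, and its difference was 2.24-fold in OLP and 2.54-fold in iOL. Pnmal1 and Pnmal2, of the paraneoplastic antigen Ma family, were listed in OLP only, and went from 6.93 to 12.9 FPKM and from 15.6 to 29.8 FPKM. Of a list of 21 Gag-derived genes, these 4 were higher in OLP, none was lower and 17 were not listed. Only Arc and Zcchc12 of the 21 were listed in iOL. Among all rows in OLP 21.5% were higher, and the share of all genes that were called is not known.

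Arc is also an immediate-early gene. Of 18 activity-induced immediate-early genes, Arc alone was higher in siKlf6 OLP, 5 were lower and 12 were not listed. Most rows in OLP were lower (216 of 275), and 21.5% were higher before the exclusions. Fos went from 80.7 to 17.7 FPKM, Junb from 47.6 to 3.26 FPKM, Fosl2 from 25.8 to 1.54 FPKM, Jun from 137 to 69.3 FPKM and Egr3 from 1.88 to 0.739 FPKM. In iOL, Arc and Egr1 were higher, the latter going from 9.01 to 21.9 FPKM, none of the 18 was lower and 16 were not listed. Of the 112 rows in iOL, 54.5% were higher.

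Genes of the extracellular matrix and of adhesion made up 7 of the 53, and 4 of them were listed at both stages. Tns3, a tensin that links integrins to the actin cytoskeleton, was the most abundant, at 35.5 and 64.2 FPKM in OLP and 35.6 and 51.9 FPKM in iOL. Lama4, a laminin chain of basement membranes, was at 14.8 and 22.7 FPKM in OLP and 7.80 and 11.8 FPKM in iOL, and its difference was almost the same at the 2 stages (1.53-fold and 1.52-fold). Fbln2, the matrix glycoprotein fibulin-2, was at 11.1 and 20.6 FPKM in OLP and 4.07 and 8.45 FPKM in iOL. Antxr2, a receptor of the anthrax toxin that binds laminin and collagen, was at 2.08 and 4.25 FPKM in OLP and 3.54 and 5.91 FPKM in iOL. In OLP only, the fibrillar collagen gene Col11a1 went from 19.0 to 37.0 FPKM. St8sia4, which adds polysialic acid to the adhesion molecule NCAM, went from 1.23 to 2.82 FPKM. 9930013L23Rik, now named Cemip and involved in the breakdown of hyaluronan, went from 0.905 to 1.88 FPKM.

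Of 31 matrix genes and matrix receptors in a list, 5 were higher in OLP (Lama4, Fbln2, Col11a1, Antxr2 and Tns3), none was lower and 26 were not listed. In iOL 6 were higher and 1 was lower. Besides the 4 shared with OLP, the matrix fibril gene Fbn2 (7.35 to 13.4 FPKM) and the integrin gene Itga8 (20.1 to 32.5 FPKM) were higher there, and Col9a1 was lower (1.69 to 0.580 FPKM). Of all 275 rows in OLP, 21.5% were higher. The list counts hold for this list alone, which was drawn up with earlier results of these data known. Outside it, and named after their values were seen, the integrin gene Itga7 (7.27 to 3.49 FPKM), the syndecan gene Sdc4 (16.8 to 9.65 FPKM) and the matrix protease genes Adamts1 (log2 difference -2.28 from 63.1 FPKM) and Adamts4 (16.4 to 4.84 FPKM) were lower in OLP.

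Of secreted signals and their antagonists there were 4, of which Adm was listed at both stages. Adm encodes the peptide adrenomedullin, which dilates vessels, and was at 6.71 and 12.6 FPKM in OLP and 5.42 and 10.6 FPKM in iOL. Its difference was 1.87-fold and 1.96-fold. Chrdl1, a secreted BMP antagonist, went from 6.23 to 10.9 FPKM in OLP, and the semaphorin gene Sema4b from 3.79 to 6.68 FPKM. Cxxc4, an intracellular inhibitor of Wnt signaling, went from 2.52 to 4.88 FPKM. These were the 4 genes higher in OLP in a list of 18 secreted ligands and BMP or Wnt antagonists, where none was lower. That list was also drawn up with earlier results known, and 21.5% of all rows in OLP were higher. Secreted factors outside the list, named after their values were seen, were lower in OLP, among them the Wnt ligand gene Wnt7b (13.7 to 8.43 FPKM), the BMP antagonist gene Nbl1 (20.2 to 12.4 FPKM), the neurotrophin gene Bdnf (1.89 to 0.729 FPKM), the cytokine gene Csf1 (11.5 to 6.82 FPKM) and the chemokine gene Ccl2 (7.41 to 1.23 FPKM). In iOL, Adm, the peptide hormone gene Apln (14.5 to 31.9 FPKM) and the growth factor binding protein gene Igfbp4 (17.0 to 26.1 FPKM) were higher and none of the 18 was lower. Secreted factors outside the list, also named after their values were seen, went both ways in iOL. Draxin (2.48 to 1.35 FPKM) and Cxcl14 (15.2 to 8.27 FPKM) were lower, and Stc1 (1.54 to 2.92 FPKM) was higher.

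Among 6 genes of kinase, phosphatase and lipid signaling, the most abundant was Dusp6, a phosphatase that inactivates the kinase ERK, which went from 104 to 165 FPKM in OLP. Ddit4l, an inhibitor of mTOR signaling, went from 20.6 to 34.6 FPKM, and Pik3r3, a regulatory subunit of PI3K, from 17.2 to 28.9 FPKM. Dgkk, a diacylglycerol kinase, went from 5.06 to 10.5 FPKM. Rasgrf2, an exchange factor that activates Ras, was under 1 FPKM in both conditions, at 0.105 and 0.338 FPKM. Only Mylk, myosin light chain kinase, was listed at both stages, and it was weakly expressed at 0.371 and 0.861 FPKM in OLP and 0.176 and 0.427 FPKM in iOL. In a list of 22 genes of ERK and PI3K signaling and their inhibitors, 4 were higher in OLP (Dusp6, Pik3r3, Ddit4l and Dgkk) and 2 were lower. The latter were Dusp5 (8.29 to 1.90 FPKM), which like Dusp6 inactivates ERK, and the kinase gene Map3k8 (3.49 to 0.753 FPKM). None of the 22 was listed in iOL. Outside the list, and named after their values were seen, the kinase genes Pim3 (30.7 to 14.6 FPKM) and Mapk11 (6.69 to 3.72 FPKM) were lower in OLP. The lipid kinase gene Pip4k2b was lower at both stages (37.9 to 23.5 FPKM in OLP and 33.7 to 22.5 FPKM in iOL). Among all rows in OLP 21.5% were higher, and the share of all genes that were called is not known.

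There were 5 metabolic genes, of which Car3 was listed at both stages. Car3, a carbonic anhydrase known from muscle, liver and fat, was at 18.3 FPKM in NT and 50.5 FPKM in siKlf6 OLP, and at 10.3 and 17.8 FPKM in iOL. It showed the widest gap between stages, 2.76-fold in OLP against 1.73-fold in iOL. Ckmt1, mitochondrial creatine kinase, went from 53.4 to 91.2 FPKM in OLP. Of 27 genes of purine nucleotide metabolism, 3 were higher in OLP, none was lower and 24 were not listed. Prps2, which makes the ribose phosphate donor of purine synthesis, went from 26.3 to 39.7 FPKM. Ampd3, which deaminates AMP, went from 5.06 to 8.59 FPKM, and Nt5e, the surface enzyme that makes adenosine from AMP, from 4.54 to 8.26 FPKM. None of the 3 was listed in iOL, where Gmpr (8.19 to 14.4 FPKM), a reductase that converts GMP to IMP, was the only listed gene of the 27. By comparison, 21.5% of all rows in OLP were higher, and the share of all genes that were called is not known.

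The 7 nuclear and RNA regulators were all listed in OLP only, and 4 of them were below 1 FPKM in NT. Peg3, a zinc finger gene expressed from the paternal allele, went from 24.1 to 45.3 FPKM. Mbnl1, a regulator of alternative splicing, went from 14.3 to 22.2 FPKM, and the transcriptional repressor gene Bcl6 from 3.59 to 6.52 FPKM. Rec8, a cohesin subunit of meiosis, went from 0.693 to 1.97 FPKM. Zim1, an imprinted zinc finger gene next to Peg3, went from 0.681 to 1.52 FPKM. Magel2, an imprinted gene of the MAGE family, went from 0.497 to 1.24 FPKM, and the nuclear receptor gene Nr5a2 from 0.244 to 0.608 FPKM. The fold differences of the 4 weakly expressed genes, 2.23-fold to 2.85-fold, were larger than those of Peg3, Mbnl1 and Bcl6, which were 1.56-fold to 1.88-fold.

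The remaining 9 genes had no common role. Of these, 3 were listed at both stages. A730017C20Rik (now Minar2) was at 0.915 and 3.13 FPKM in OLP and 0.814 and 2.16 FPKM in iOL. AW551984 was at 1.11 and 3.09 FPKM in OLP and 0.687 and 1.33 FPKM in iOL. Sel1l3 was at 3.46 and 6.11 FPKM in OLP and 1.72 and 4.22 FPKM in iOL, and was one of the genes with a larger difference in iOL (2.46-fold against 1.77-fold). The other 6, listed in OLP only, were Pgap1, an enzyme of GPI anchor remodeling, Sptb, an erythrocyte-type spectrin chain, and Fam102a, Fam214a, Fam135b and Glcci1. Their siKlf6 levels were 2.51 FPKM for Sptb and up to 20.4 FPKM for Pgap1.

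**Figure D4:**
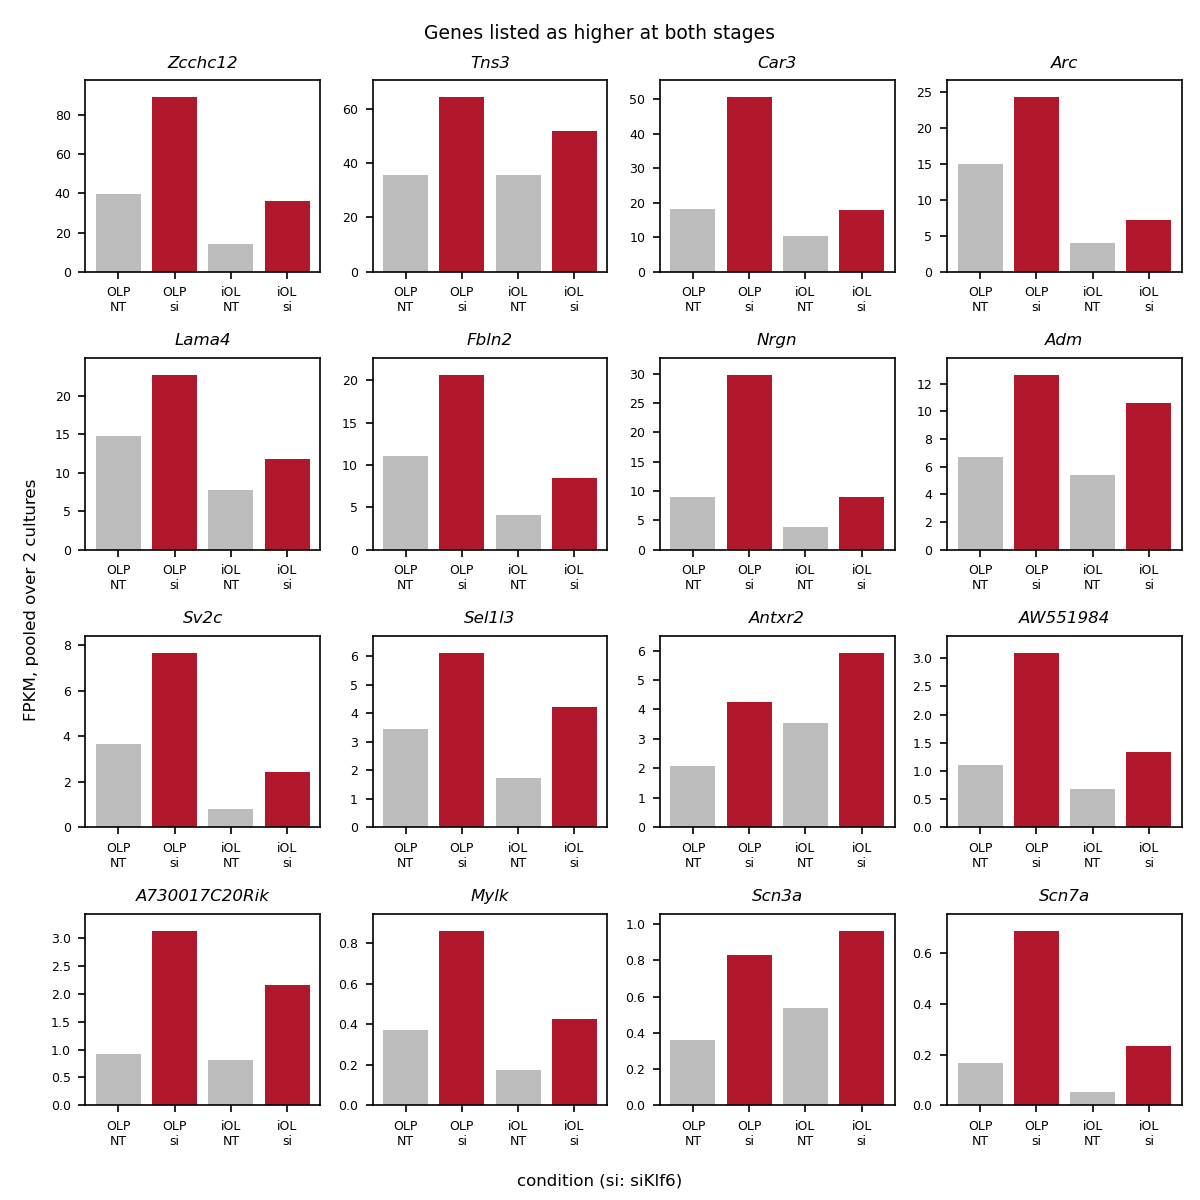
FPKM of the 16 genes listed at both stages in OLP NT, OLP siKlf6, iOL NT and iOL siKlf6, 1 panel for each gene with its own axis from 0. Each bar is 1 pooled value of 2 cultures, with no error. In every panel the red bars (siKlf6) are above the grey bar of their own stage, and in 13 panels the iOL NT bar is below the OLP NT bar.

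In control cells most of the 16 genes were at a lower level in iOL than in OLP. The iOL NT value was below the OLP NT value for 13 of the 16, with a median ratio of 0.512, whereas it was below for 18 of the 34 genes that were lower after silencing at both stages, with a median ratio of 0.984. The ratios of the 16 genes ran from 0.225 for Sv2c to 1.70 for Antxr2. Arc (0.271), Zcchc12 (0.356) and Fbln2 (0.365) were among the lowest, and the genes not lower in iOL NT were Antxr2, Scn3a (1.49) and Tns3 (1.00). The values of the 2 stages may have been normalized separately, which the sources used here do not state. The OLP NT value had a part in choosing the genes, and no difference between stages was tested.

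Levels in siKlf6 iOL were close to those of NT OLP for several of these genes. Nrgn was at 8.97 FPKM in the former and 8.96 FPKM in the latter, Car3 at 17.8 and 18.3 FPKM, and Zcchc12 at 36.1 and 39.8 FPKM. The 2 values were within 1.5-fold for 11 of the 16 genes, with a median ratio of 1.18, while iOL NT was within 1.5-fold of OLP NT for 4 of the 16. Over the 10 genes with at least 1 FPKM in all 4 conditions the median ratio was 0.987, and 7 of the 10 were within 1.5-fold. Among the 34 genes lower at both stages, iOL siKlf6 was within 1.5-fold of OLP NT for 10, and iOL NT for 29. The OLP NT value had a part in choosing the 16 genes. They were listed in iOL as higher in siKlf6, so their siKlf6 ratio had to exceed their NT ratio. The closeness is therefore a description, and its cause was not tested. As before, the values of the 2 stages may have been normalized separately.

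Markers of the cell types gave little basis for checking the labels. Of 9 OLP markers none was listed in OLP, so that their levels are not known there. Sox9, another gene used to mark OLP, was not in this list and was left out of the 53 genes by name, and it was higher in siKlf6 OLP (53.4 to 87.8 FPKM). Sox10, in the list, was lower in siKlf6 iOL (42.1 to 25.9 FPKM). Of 10 genes of maturing oligodendrocytes only Cldn11 was listed, lower at both stages (18.2 to 8.97 FPKM in OLP and 17.7 to 9.83 FPKM in iOL). Of 12 astrocyte markers Gfap (3.06 to 0.0752 FPKM) and Ndrg2 (13.5 to 6.94 FPKM) were lower in OLP, and Ndrg2 was lower in iOL (25.9 to 9.55 FPKM). Of 12 microglia markers Cd14 (1.91 to 0.146 FPKM) and Irf8 (1.81 to 0.667 FPKM) were lower in OLP and none was listed in iOL. No marker in these 5 lists was higher with the 53 genes. Among all rows, 216 of 275 in OLP were lower, and 54.5% of the 112 in iOL were higher. Whether a change in the makeup of the cultures has a part in the levels of the 53 genes was not tested.

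Of the 53 genes, 51 had a locus of their own symbol in the annotation of the build NCBIM37 (mm9), all except Fam214a and Sptb. Their spans from first to last base ran from 2.16 kb (Adm) to 882 kb (Rasgrf2), with a median of 44.2 kb. More than 100 kb was spanned by 19 of the 51 (37.3%), by 10.0% of the genes lower in OLP and by 10.8% of all protein-coding genes of the annotation. It was spanned by 8 of the 16 genes listed at both stages, by 31.4% of those listed in OLP only, and by 30.0% of members with at least 1 FPKM in both OLP conditions. Besides Rasgrf2, the widest were Gabrg3 (671 kb) and Synpr (331 kb). On chromosome X lay 5 of the 51 (9.80%), namely Zcchc12, Tmem35, Chrdl1, Dgkk and Prps2, against 0.478% of the lower genes and 4.17% of all protein-coding genes. On chromosome 7 lay 10 of the 51 (19.6%), against 5.26% and 9.29%.

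Chromosome 7 held 3 pairs of neighbours among the 53 genes. Zim1 (chr7:6628154-6649161, minus strand) and Peg3 (chr7:6656603-6683132, minus strand) lay 7.44 kb apart, in a known imprinted cluster. Pnmal2 (chr7:17530031-17532427, plus strand) and Pnmal1 (chr7:17545144-17547668, plus strand) lay 12.7 kb apart. Adm (chr7:117771175-117773331, plus strand) and Ampd3 (chr7:117911720-117955919, plus strand) lay 138 kb apart with 1 protein-coding gene between them. These coordinates are of NCBIM37. Exons of Ckmt1, Cxxc4, Glcci1 and Ampd3 overlapped those of a gene on the opposite strand. Of the exonic bases, 10 of 2496 were shared for Ckmt1. At most 138 of 5212 were shared with any 1 partner for Cxxc4, and 195 of 5605 for Ampd3. For Glcci1, 5412 of the 7774 exonic bases were shared with the annotated gene Gm16039 on its own strand. On the opposite strand, at most 1251 of the 7774 were shared with any 1 partner, the pseudogene Gm16042. Reads of Glcci1 may thus be partly those of its partners, and those of the other genes over few bases only.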

How the data were processed

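RNA-seq was analysed from 8 cultures, 2 in each of 4 groups taken from the sample labels. The authors prepared unstranded libraries and mapped trimmed reads with TopHat to mm9, and compared conditions with Cuffdiff under default settings at a false discovery rate of 0.05. Per the labels, CASAVA 1.8 was used upstream, and other versions were not given in the sources used here. The deposited values are FPKM, pooled by the authors to 1 value for each condition, and only significant rows were deposited in the 2 tables used here. The authors' own fold change, test statistic, p and q columns were not used. Log2 differences were computed from the pooled FPKM values with no pseudocount in Python 3.11.15, and the code was tested on simulated data. Depth per sample is unknown, so no interval is given, and no test was possible. Named genes were Klf6, all genes listed at both stages, the 10 OLP-only genes with the largest log2 difference, those nearest the edge, the listed genes of 7 role lists, and the remaining members by role. The members and lists were chosen with earlier results of these data known, and the role groups were assigned after values were seen. Loci were matched by symbol to NCBIM37 (GENCODE vM1), and promoters to a RefSeq table of GRCm38.p6, taking the first promoter listed for a gene. Alternatives were pseudocounts of 1 and 0.1 FPKM, a minimum of 1 FPKM, loci of at least 500 bp with 1 symbol, a log2 difference of at least 0.75, the excluded rows put back, and a match by locus.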

Additional observations from a re-analysis of the deposited data

How the results depend on the processing

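No paired analysis was possible because cultures were pooled to 1 value for each condition. For the same reason no replicate could be left out and no result has a test. The direction of every member follows from how it was chosen. The medians, in the order all members in OLP, genes at both stages in OLP, genes in OLP only, and genes at both stages in iOL, were 0.72, 0.82, 0.72 and 0.71 with 1 FPKM added, 0.89, 1.02, 0.85 and 0.95 with 0.1 FPKM added, 0.86, 0.89, 0.83 and 0.90 with at least 1 FPKM in both conditions of each table read, and 1.03, 1.18, 0.93 and 1.13 with a log2 difference of at least 0.75. They did not move when only loci of at least 500 bp with 1 symbol were kept. With the minimum of 1 FPKM in OLP, 42 members were left, 12 of them listed in iOL. With the minimum also applied to the iOL values 10 were left at both stages, and 5 of these had the larger difference in OLP. Either pseudocount gave 10 of 16 with the larger difference in OLP, against 8. The order of the stages turned for Mylk and Scn7a, both below 1 FPKM in all 4 conditions, whose iOL minus OLP log2 differences became -0.16 and -0.30 with 1 FPKM added and -0.09 and -0.43 with 0.1 FPKM added. Putting back the excluded rows gave 59 members, and matching by locus again gave 16 at both stages. The ratios between stages were examined under alternatives chosen after seeing the data. The median of iOL NT over OLP NT was 0.705 with 1 FPKM added, and that of iOL siKlf6 over OLP NT was 1.05 with 1 FPKM added and 0.987 with at least 1 FPKM in all conditions, so that it lay on either side of 1.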
